A study of Drosophila melanogaster with 4 samples.

Results

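The chorion genes of Drosophila melanogaster encode the structural proteins of the outer eggshell. The 9 rows of the ovary expression tables with the symbols Cp7Fa, Cp7Fb, Cp7Fc, Cp36, Cp38, Cp15, Cp16, Cp18 and Cp19 were taken by name, out of 17773 gene identifiers, and all 9 passed the filter on low counts. Tumor ovaries carried the driver tj-GAL4, the repressor tubulinGal80ts and the transgenes UAS-aPKCΔN and UAS-RasV12, and control ovaries carried tj-GAL4 and tubulinGal80ts alone. All flies were adult females kept at 29 °C for 20 days, and RNA-seq was done on 2 libraries of each genotype, called tumor 1, tumor 2, control 1 and control 2 below. The tj-GAL4 driver is active in the somatic cells of the ovary, which include the follicle cells, and Gal80ts holds it off at low temperature. The aPKCΔN and RasV12 proteins are activated forms of an atypical protein kinase C and of Ras, and the tumor libraries therefore describe ovaries in which both were expressed together. Per the labels, control ovaries were dissected for follicles that had not begun yolk uptake, tumors were dissected whole, and both were dissociated with a protease and, per the series description, filtered to enrich for follicle epithelium. How many animals were pooled in a library is not given in the sources used here.

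Follicle cells surround the germline cyst and secrete the eggshell in layers, first the vitelline membrane and then the chorion, shortly before the egg is laid. To meet the demand for chorion protein within a few hours, these cells stop replicating their whole genome but fire replication origins repeatedly at the chorion clusters and a few other loci, which raises the copy number of the genes there. Within this program Cp36 and Cp38 are early genes and Cp15 is a late one. Chorion transcripts thus mark the oldest follicles in an ovary, and their level depends on how many such follicles a sample holds. In bulk RNA, fewer cells of a type and less RNA per cell cannot be told apart.

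Both clusters are tandem arrays on the plus strand. In the BDGP6.54 annotation (Ensembl release 115), the X chromosome cluster runs over 12424 bases, from 8470888 to 8483311, in the order Cp7Fa, Cp7Fb, Cp7Fc, Cp36 and Cp38. The third chromosome cluster runs over 5809 bases of arm 3L, from 8726791 to 8732599, in the order Cp18, Cp15, Cp19 and Cp16. The target sequence against which the authors assigned reads was, for each of the 9 genes, the gene span plus 2000 bases on each side, 4586 to 6235 bases in all. Neighbouring targets therefore overlap, and no exon base of any of the 9 genes lies outside the targets of other genes. On the X, 81.8% of the exon bases of Cp36 also lie in the target of Cp7Fc and 61.6% in that of Cp38, and the target of CG33223, a gene on the opposite strand, holds all exons of all 5 chorion genes. On 3L, all exon bases of Cp15 lie in the targets of both Cp18 and Cp19, and all exon bases of Cp16 lie in the target of Prm, the muscle gene for paramyosin. A count for 1 chorion gene can thus hold reads of its neighbours, and the sums over a cluster are given beside the single genes for that reason.

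**Figure D1:**
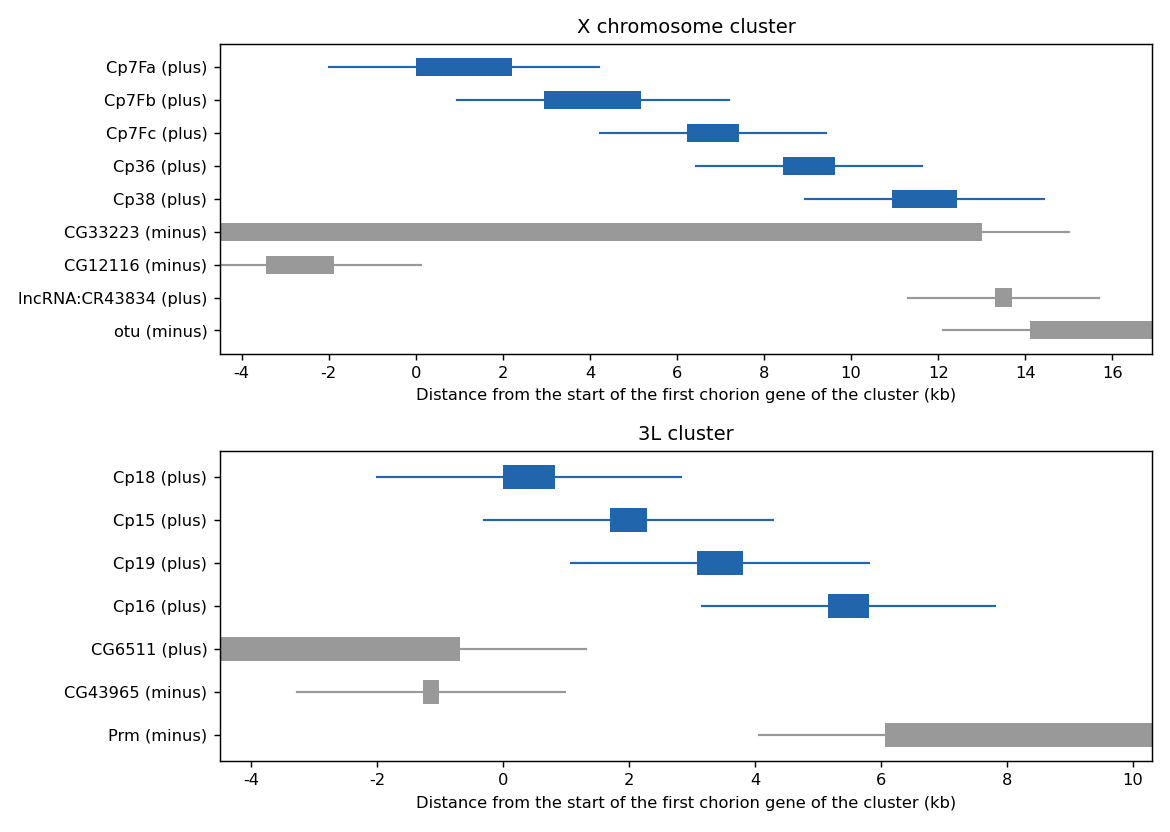
Map of the X chromosome cluster (top) and the 3L cluster (bottom) with distance from the start of the first chorion gene in kb. Boxes are annotated gene spans and lines the 2000 bases that the authors' targets add on each side, with chorion genes in blue and other listed genes in grey. Each chorion gene's target reaches into at least 1 neighbour.

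The libraries held 47512735 and 42739528 estimated counts in tumor, against 41248098 and 50971937 in control. Ras85D had 102550 and 109225 counts in tumor libraries, against 676 and 215 in control libraries, and aPKC had 54944 and 73836 in tumor, against 1910 and 2482 in control. Across genes, log2(CPM + 1) values, where CPM stands for counts normalised to library size, correlated between replicates at r = 0.989 for tumor and 0.99 for control. The replicates differed beyond counting error, since the chi-square statistic divided by its degrees of freedom was 131 for the tumor pair and 90.9 for the control pair. At an adjusted p below 0.05 (edgeR quasi-likelihood test, Benjamini-Hochberg), 2201 (23.4%) of the 9402 tested genes were higher and 1989 (21.2%) lower in tumor. With scaling on ribosomal protein genes instead, the split was 4426 higher and 902 lower, and the median log2 fold change of all genes moved to 0.67, against 0.02 in the fit used here. On log2(TPM + 1) the split was 2972 higher and 1514 lower.

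Chorion RNA was low in tumor, and in control it came mostly from 1 library. The 5 genes of the X cluster together had 2197 counts in tumor 1 and 1587 in tumor 2, against 168132 in control 1 and 3311 in control 2. They took 0.004624% of the counts of tumor 1 and 0.003713% of tumor 2, against 0.4076% of control 1 and 0.006496% of control 2. In CPM scaled by the trimmed mean of M values (scaled CPM), the X sum was 45.5 and 35.3 in tumor, against 4179 and 67.9 in control. Control 1 stood 103.5-fold above the tumor mean and control 2 stood 1.68-fold above it. Both tumor libraries were below both control libraries, yet the control libraries differed from each other by 61.6-fold. The log2 fold change was -5.72 ± 2.01 (SE) and did not pass the threshold in edgeR's test (adjusted p = 0.081). Without control 2 it was -6.70 and passed (adjusted p = 0.012), and without control 1 it was -0.75 and did not (adjusted p = 0.10).

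The 4 genes of the 3L cluster were more even between the controls. Their counts added to 631 in tumor 1 and 386 in tumor 2, against 3662 in control 1 and 8179 in control 2. In scaled CPM this was 13.1 and 8.57 in tumor, against 91.0 and 168 in control. Control 2 was here the higher control library, 1.84-fold above control 1, the opposite order to the X cluster. Control 1 stood 8.42-fold and control 2 stood 15.5-fold above the tumor mean. The 3L sum fell by 3.58 ± 0.41 (log2, edgeR adjusted p = 0.0056) and stayed past the threshold when any 1 library was left out.

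**Figure D2:**
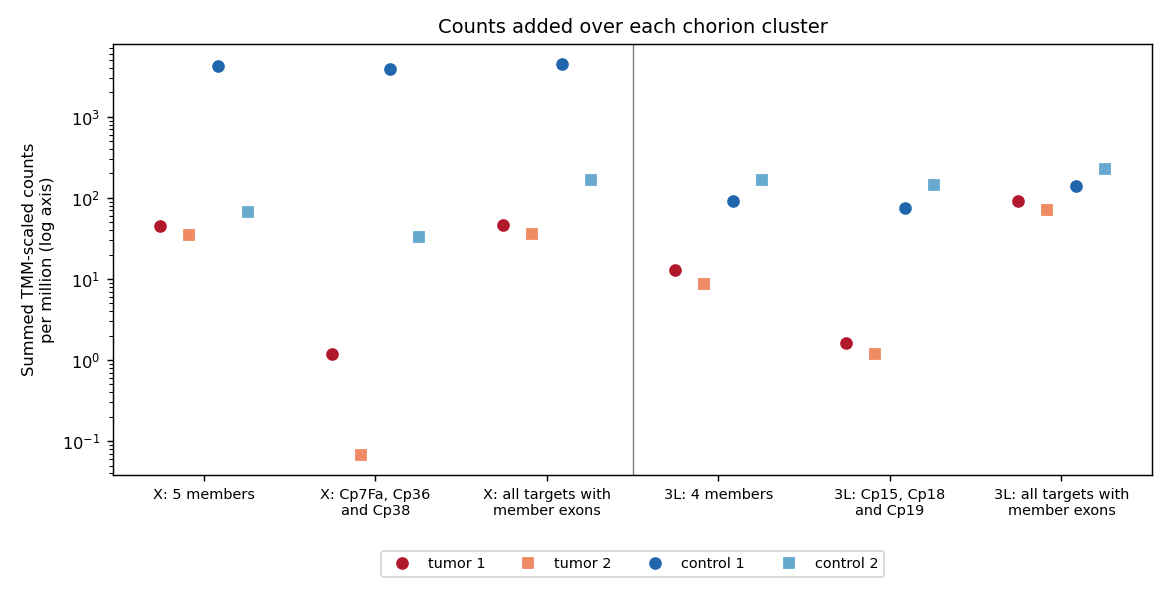
Summed scaled CPM on a log axis for the X cluster (left) and the 3L cluster (right), 1 point per library, over all members, over the members without Cp7Fb and Cp7Fc (X) or without Cp16 (3L), and over every listed target that holds a member's exon. For all members of the X, tumor at 45.5 and 35.3 and control 2 at 67.9 lie far below control 1 at 4179, while on 3L both tumor libraries, at 13.1 and 8.57, lie below both control libraries, at 91.0 and 168.

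Of the 9 genes, 3 were called lower in tumor, where 21.2% of all genes tested were, and 0 were called higher, where 23.4% were. The lower count was 3 without control 1, 8 without control 2, and 1 without either tumor library. For 5 of the 9, both tumor libraries lay below both control libraries in scaled CPM, where 38.8% of all genes did so. The median log2 fold change of the 9 was -10.28, against 0.02 for all genes tested. With the genes at 0 in tumor set to the bound given by 3 counts per library, it was -8.43. This median rested largely on control 1, since it was -1.28 without control 1 and -11.28 without control 2. On log2(TPM + 1) it was -3.21. Of the 9, 3 genes, Cp7Fa, Cp15 and Cp19, at 0 in both tumor libraries, passed the filter on low counts through control alone. Cp38, called lower along with Cp15 and Cp19, had 3 counts in tumor 2 and could not have passed it through tumor alone. Each of the 3 lower calls thus depended on control for entry to the test.

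Cp38, an early chorion gene at the end of the X cluster, had the highest level of the 9 in control 1. It had 21 and 3 counts in tumor 1 and tumor 2, against 116951 in control 1 and 1544 in control 2. In scaled CPM this was 0.444 and 0.0748 in tumor, against 2907 and 31.6 in control. The groups did not overlap, and the control libraries were 91.9-fold apart. Cp38 fell by 12.47 ± 3.04 (log2, edgeR adjusted p = 0.034). That call was lost without tumor 1 (adjusted p = 0.13) and without tumor 2 (adjusted p = 0.14), and it held without either control library. When every target with a Cp38 exon was added, the counts were 74 and 43 in tumor, against 169706 and 6285 in control (log2 fold change -10.76 ± 2.25, edgeR adjusted p = 0.023).

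Cp36, the other early gene and the neighbour of Cp38, had nearly all of its listed counts in control 1. It was listed at 36 and 0 counts in tumor, against 38349 in control 1 and 0 in control 2. Tumor 1 was thus above control 2, and the groups overlapped. The log2 fold change was -10.28 ± 4.16 and did not pass (edgeR adjusted p = 0.11). Without control 2 it passed (adjusted p = 0.024), and without control 1 it changed sign, to 7.15 (adjusted p = 0.34). With every target that holds a Cp36 exon added, the counts were 1911 and 1273 in tumor, against 164207 and 3226 in control (log2 fold change -5.93 ± 2.04, edgeR adjusted p = 0.078). The target of Cp38, which holds 61.6% of the exon bases of Cp36, had 1544 counts in control 2, so a listed 0 is no measure of absence there.

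The 3 genes at the start of the X cluster, Cp7Fa, Cp7Fb and Cp7Fc, encode further chorion proteins. Cp7Fa had 0 counts in both tumor libraries, against 1748 in control 1 and 43 in control 2. It did not pass the test (edgeR adjusted p = 0.066), and it did without control 2 (adjusted p = 0.018). Adding every target that holds a Cp7Fa exon gave 301 and 370 counts in tumor, against 4531 in control 1 and 181 in control 2. By that sum control 1 stood 15.6-fold above the tumor mean and control 2 lay below both tumor libraries, and the test was not passed (log2 fold change -3.01 ± 1.55, edgeR adjusted p = 0.18).

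Cp7Fb had 286 and 337 counts in tumor, against 2480 in control 1 and 42 in control 2. Tumor lay between the control libraries, and control 2 was the lowest of all 4 libraries. Its log2 fold change of -2.22 ± 1.75 did not pass (edgeR adjusted p = 0.36), and without control 1 the sign turned, to 2.95 (adjusted p = 0.054). Cp7Fc was the chorion gene with the most counts in tumor, 1854 in tumor 1 and 1247 in tumor 2, against 8604 in control 1 and 1682 in control 2. In scaled CPM these were 38.4 and 27.7 in tumor, against 214 and 34.5 in control, so that tumor 1 exceeded control 2. Its log2 fold change was -1.91 ± 0.89 (edgeR adjusted p = 0.15). Without control 2 both genes passed (adjusted p = 0.018 for Cp7Fb and 0.019 for Cp7Fc).

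The makeup of the X cluster, with reads as the authors assigned them, also differed between libraries. Cp7Fc made up 84.4% and 78.6% of the cluster's counts in tumor, against 5.12% in control 1 and 50.8% in control 2. Cp38 made up 0.977% and 0.212% in tumor, against 69.6% in control 1 and 46.6% in control 2. Cp36 made up 1.65% and 0% in tumor, against 22.8% in control 1 and 0% in control 2. The counts that remained in tumor were therefore nearly all on the targets of Cp7Fc and Cp7Fb. The target of Cp7Fc also holds 81.8% of the exon bases of Cp36, so these shares depend on how shared reads were divided. With Cp7Fb and Cp7Fc left out, an alternative added after the data were seen, the X sum was 57 and 3 counts in tumor. In control it was 157048 and 1587. Its log2 fold change was then -11.59 and passed the threshold (edgeR adjusted p = 0.043). A larger fall follows from leaving out the targets with most of the tumor counts.

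**Figure D3:**
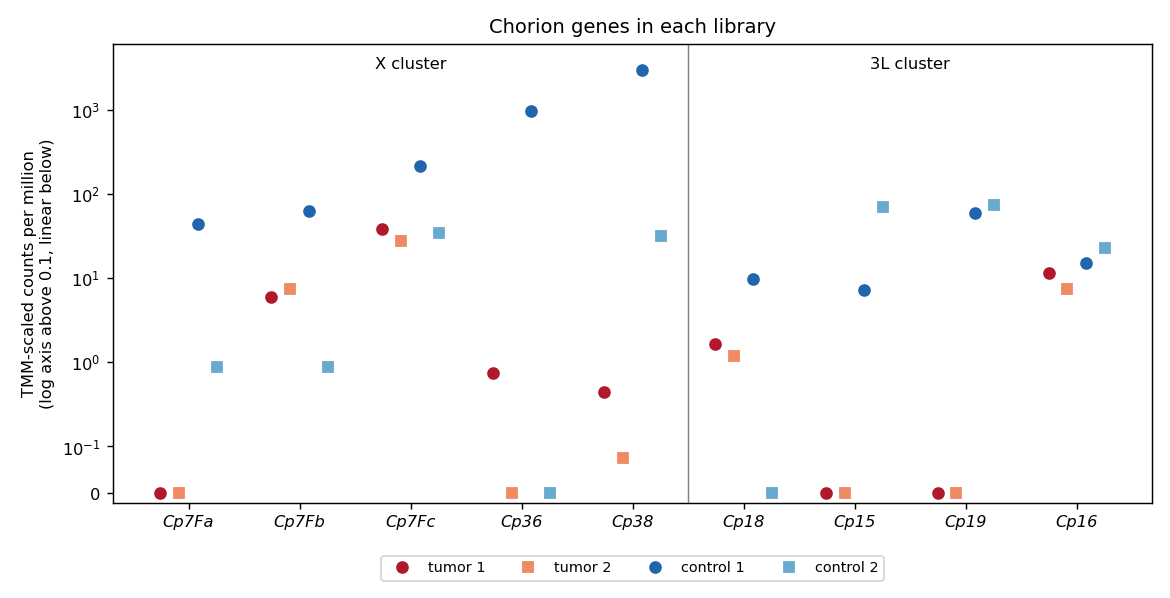
Scaled CPM of each chorion gene in each library, in the order of the genes along the X and 3L clusters, on an axis that is logarithmic above 0.1 and linear below. Control 1 is highest for all 5 X genes and for Cp18, control 2 is highest for Cp15, Cp19 and Cp16, and the tumor libraries are at 0 for Cp7Fa, Cp15 and Cp19.

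On 3L, Cp19 and Cp15 were listed at 0 in both tumor libraries and were present in both controls. Cp19 encodes a chorion protein and had 2375 counts in control 1 and 3635 in control 2. For reads as the authors assigned them, and against the floor of 3 counts per library, it was at least 917-fold lower in tumor than in control 1 and at least 1158-fold lower than in control 2. It fell in tumor (edgeR adjusted p = 0.0017), and it was the 1 chorion gene whose call held under all 18 alternatives tried, with adjusted p up to 0.017. Adding every target that holds a Cp19 exon gave 552 and 332 counts in tumor, all of them on the target of Cp16, against 3272 and 8179 in control (log2 fold change -3.73 ± 0.47, edgeR adjusted p = 0.007). By that sum control 1 stood 8.65-fold and control 2 stood 17.8-fold above the tumor mean.

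Cp15, a late chorion gene, had 0 counts in both tumor libraries, against 287 in control 1 and 3431 in control 2. For reads as assigned, it was at least 111-fold lower in tumor than in control 1 and at least 1093-fold lower than in control 2, and it fell in tumor (edgeR adjusted p = 0.028). Control 2 was 9.87-fold above control 1, the reverse of the early genes Cp36 and Cp38. The call was lost without tumor 1 (adjusted p = 0.073) and without tumor 2 (adjusted p = 0.069). The sum of targets with a Cp15 exon was 79 and 54 counts in tumor, against 3052 and 7066 in control (log2 fold change -6.28 ± 0.46, edgeR adjusted p = 0.0025), with control 1 standing 53.5-fold and control 2 standing 102-fold above the tumor mean.

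Cp18 and Cp16 lie at the ends of the 3L array, and each shares its target with genes outside the cluster. Cp18 had 79 and 54 counts in tumor, against 390 in control 1 and 0 in control 2. Control 2 was below both tumor libraries, and the log2 fold change of -1.77 ± 2.28 did not pass (edgeR adjusted p = 0.56). Without control 1 the sign turned, to 9.07 (adjusted p = 0.044), against a control at 0, and without control 2 it was -2.77 (adjusted p = 0.046). All exon bases of Cp18 lie in the target of Cp15, which had 3431 counts in control 2.

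Cp16 had 552 and 332 counts in tumor, against 610 in control 1 and 1113 in control 2. In scaled CPM this was 11.4 and 7.37 in tumor, against 15.2 and 22.8 in control. The groups did not overlap, but the log2 fold change of -1.01 ± 0.35 did not pass (edgeR adjusted p = 0.08). Cp16 made up 87.6% and 86.1% of the 3L cluster's counts in tumor, against 16.7% in control 1 and 13.6% in control 2. The target of Cp16 also holds 30.5% of the exon bases of Prm, so these counts can hold Prm reads. Without Cp16, an alternative added after the data were seen, the 3L sum was 79 and 54 counts in tumor, all on the target of Cp18. In control it was 3052 and 7066 (log2 fold change -6.28, edgeR adjusted p = 0.0024). That sum adds the same targets, Cp15, Cp18 and Cp19, as the sum given above for Cp15, and is not a separate result.

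Ordered per target length, the chorion genes ranked differently in each group. In tumor 1, Cp7Fc led with 53.0 TPM, followed by Cp16 with 17.7, Cp7Fb with 6.81, Cp18 with 2.42, Cp36 with 1.04 and Cp38 with 0.583 TPM. In tumor 2 the first 4 stood in the same order, at 40.9, 12.2, 9.22 and 1.91 TPM, ahead of Cp38 at 0.105 TPM. Control 1 was led by Cp38 with 3357 and Cp36 with 1158 TPM, followed by Cp7Fc with 259.9, Cp19 with 78.8, Cp7Fb with 62.4, Cp7Fa with 44.3, Cp16 with 20.6, Cp18 with 12.7 and Cp15 with 9.84 TPM. Control 2 was led by Cp19 with 98.0 and Cp15 with 95.6 TPM, followed by Cp7Fc with 41.2, Cp38 with 36.0 and Cp16 with 30.5 TPM, while Cp7Fa and Cp7Fb were under 1 TPM. Early genes of the X cluster were thus the most abundant in control 1, and genes of the middle of the 3L cluster in control 2. With 1 library on each side of that contrast it has no replicate check, and the order within a cluster also depends on how reads were shared among overlapping targets.

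The control libraries stood far apart for the X genes, Cp18 and Cp15, and less so for Cp19 and Cp16. Over all 9402 genes, the absolute log2 ratio of control 1 to control 2 had a median of 0.20 and a 95th percentile of 1.67, and that of tumor 1 to tumor 2 had a median of 0.21 and a 95th percentile of 1.91. Cp38 was 91.9-fold, Cp7Fb 70.9-fold, Cp7Fa 49.4-fold and Cp7Fc 6.21-fold higher in control 1 than in control 2. Of the 9393 other genes tested, 14 had a higher ratio than Cp38 and 126 than Cp7Fc. In the other direction, Cp15 was 9.87-fold, Cp16 1.51-fold and Cp19 1.26-fold higher in control 2 than in control 1, and 74, 946 and 1531 genes had a lower ratio than these 3. Cp36 and Cp18 were listed at 0 in control 2, where overlapping targets held their exons. When all targets with exons of the gene were added, Cp36 was 61.7-fold higher in control 1, and Cp18 was 2.01-fold higher in control 2.

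Genes that accompany the chorion genes in the late follicle program were read in the same way. Of 25 other eggshell genes listed, 15 were tested, and 7 were lower, 0 higher and 8 not called. Over all genes 21.2% were lower and 23.4% higher. The list's median log2 fold change was -6.23, against 0.02 for all genes. That median rested largely on control 1, since it was -0.24 without control 1 and -7.24 without control 2. Of these 15, 10 were more than 2-fold higher in control 1 than in control 2, and 1 was more than 2-fold lower. Over all 9402 genes, 442 and 513 were. Of the 7 genes called lower, Muc12Ea, CG15570 and CG14187 passed the filter on low counts through control alone. Pxt, CG4009 and CG13114 each had a tumor library at 3 to 5 counts and could not have passed it through tumor alone. Entry to the test thus favoured lower calls. The lower count was 12 without control 2, 4 without control 1, 3 without tumor 1 and 4 without tumor 2.

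The eggshell gene yellow-g2, a member of the yellow family needed for a firm eggshell, had 25 and 18 counts in tumor, against 5241 in control 1 and 28 in control 2. All of its 1431 exon bases lie outside the targets of other genes, and its control libraries were 227-fold apart. It did not pass the test between groups (log2 fold change -7.14 ± 2.62, edgeR adjusted p = 0.091). Its relative yellow-g had 72 and 80 counts in tumor, against 9934 in control 1 and 8 in control 2 (edgeR adjusted p = 0.15).

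Among the 15 tested eggshell genes, 10 were more than 2-fold higher in control 1 than in control 2, and 1, Muc12Ea, was more than 2-fold lower. The rest, among them Pxt and CG13992, differed less between the control libraries. Pxt, a peroxidase-like enzyme needed for follicle maturation, had 16 and 3 counts in tumor, against 3152 and 2594 in control, and fell by 8.33 ± 0.72 (log2, edgeR adjusted p = 0.0034). CG13992 had 47 and 43 counts in tumor, against 2783 and 3695 in control (log2 fold change -6.23 ± 0.17, edgeR adjusted p = 0.0011). Every exon base of CG13992 lies in the target of Ucp4C or psd, and its own target holds exons of psd, a vitelline membrane gene. Its counts can thus hold reads of psd. The mucin gene Muc12Ea had 0 and 3 counts in tumor, against 391 and 1229 in control, with control 2 the higher as for Cp15 (edgeR adjusted p = 0.0087, and 0.05 without control 2). CG15570 had 4 and 3 counts in tumor, against 16656 and 822 in control, with control 1 the higher by 24.6-fold (edgeR adjusted p = 0.025), a call that was lost without either tumor library (adjusted p = 0.11 each). The gene dec, whose products help assemble the eggshell, had 5349 and 5183 counts in tumor, against 11052 and 3720 in control, and was not called (edgeR adjusted p = 0.45).

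The vitelline membrane genes, which are transcribed before the chorion genes, were also lower in tumor. Of 11 listed, 8 were tested and all 8 were lower, where 21.2% of all genes were, with a median log2 fold change of -9.02, or -7.28 with genes at 0 in tumor set to their bound. Without control 1 the lower count was 6, since psd (adjusted p = 0.051) and Vm32E (adjusted p = 0.073) lost their calls. The control libraries differed by over 2-fold for 2 of the 8, Vm32E at 4.42-fold and Vm34Ca at 2.17-fold higher in control 1. The summed level of the list was 11.5 and 14.6 scaled CPM in tumor, against 2079 and 1606 in control. Vm32E, Vm34Ca and fs(1)M3 had at most 5 counts in either tumor library and passed the filter on low counts through control alone. Vm26Ac, a vitelline membrane protein gene whose target also holds exons of Vm26Aa and Vm26Ab, had 59 and 23 counts in tumor, against 44321 and 41251 in control (log2 fold change -10.12 ± 0.52, edgeR adjusted p = 0.0016). Vm34Ca, another, had 0 counts in both tumor libraries, against 12668 and 7066 in control (edgeR adjusted p = 0.0044). Cad99C, a cadherin of the microvilli under which the membrane forms, had 300 and 267 counts in tumor, against 7553 and 10400 in control (log2 fold change -5.04 ± 0.11, edgeR adjusted p = 6.4e-04), and ndl, a protease gene of the eggshell, had 35 and 49 in tumor, against 9282 and 9997 in control (-7.91 ± 0.23, edgeR adjusted p = 0.0011).

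**Figure D4:**
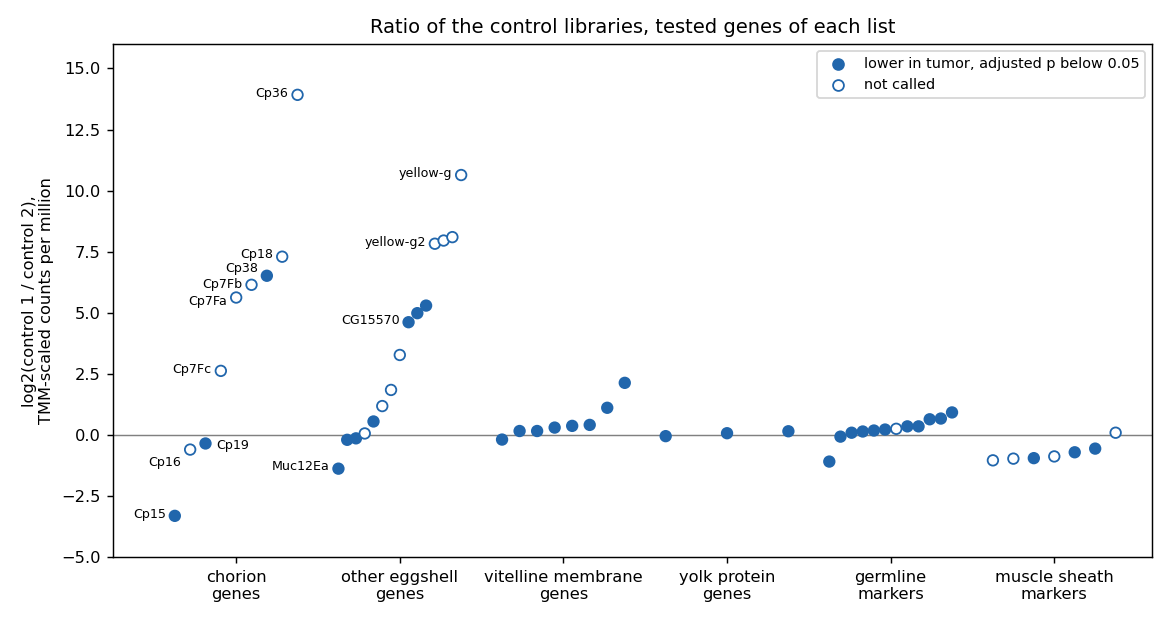
Log2 ratio of control 1 to control 2 in scaled CPM for the tested genes of 6 lists, 1 point per gene, filled where the gene was lower in tumor at an adjusted p below 0.05. The chorion genes run from Cp15, below 0, to Cp36 at 13.92, where control 2 was set to the floor of 3 counts as for Cp18, and the other eggshell genes spread likewise, while the yolk protein genes lie near 0 and the vitelline membrane genes have a median of 0.34.

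The genes most like each cluster were found by distance between centred log2(CPM + 1) profiles over the 4 libraries, among 9386 tested genes whose targets do not overlap a chorion gene's. Nearest to the X sum were yellow-g2 at a distance of 0.55, Muc4B at 1.02, CG4009 at 1.29, CG43333 at 1.41 and CG13114 at 1.43. Of these 5, yellow-g2, CG4009 and CG13114 were on the eggshell list. The target of Muc4B holds exons of Femcoat, another gene of that list, so the counts of Muc4B can hold Femcoat reads. CG4009 had 5 and 16 counts in tumor, against 7416 in control 1 and 229 in control 2 (log2 fold change -8.69 ± 2.28, edgeR adjusted p = 0.041). It lost that call without control 1 (adjusted p = 0.07), tumor 1 (0.16) or tumor 2 (0.14). Nearest to the 3L sum were TpnC73F, a troponin C gene of muscle, at 0.19, CG30103 at 0.28, the MEK gene Dsor1 at 0.42, the mitochondrial ribosomal protein gene mRpL49 at 0.50 and CG12581 at 0.52. None of the last 5 genes was on an eggshell list, and TpnC73F had 72 and 21 counts in tumor, against 571 and 1191 in control.

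Muscle RNA, like the 3L cluster, was highest in control 2. Of 8 muscle sheath markers, 7 were tested and 3 were lower, 0 higher and 4 not called, where 21.2% of all genes tested were lower. None of the 3 lower calls was made under ribosomal protein scaling, and leaving out 1 library left 0 or 1 of the list called lower. The markers' summed level was 434 and 388 scaled CPM in tumor, against 511.5 and 617 in control. Most of it was Tm1, at 337.5 and 335.8 in tumor, against 350.4 and 327.0 in control. Mhc, the myosin heavy chain of muscle, had 1761 and 759 counts in tumor, against 2451 in control 1 and 5768 in control 2. Prm, whose target covers Cp16, went the other way, with 1995 and 1022 counts in tumor, against 441 and 875 in control, and was not called (log2 fold change 1.15 ± 0.41, edgeR adjusted p = 0.085). The 3L sum with Prm added was 2626 and 1408 in tumor, against 4103 and 9054 in control, and was still lower (log2 fold change -1.75, edgeR adjusted p = 0.031). The part of muscle RNA in the 3L result was not tested.

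The other listed genes around the clusters also hold chorion exons in their targets. The noncoding gene lncRNA:CR43834, whose target holds 89.5% of the exon bases of Cp38, had 10 and 3 counts in tumor, against 12579 and 3167 in control (log2 fold change -10.38 ± 1.29, edgeR adjusted p = 0.0067), and its reads cannot be told apart from those of Cp38. CG33223 had 0 and 23 counts in tumor, against 303 and 0 in control (edgeR adjusted p = 0.34), and CG12116 had 15 and 10 in tumor, against 0 and 96 in control (edgeR adjusted p = 0.48). The germline gene otu, needed for oogenesis, had 7 and 14 counts in tumor, against 1524 and 1574 in control, and its target holds 24.3% of the exon bases of Cp38. On 3L, CG6511 had 1199 and 1185 counts in tumor, against 843 and 1538 in control (edgeR adjusted p = 0.92), and CG43965 had 605 and 568 in tumor, against 772 and 625 in control (edgeR adjusted p = 0.36). Over every target that holds a chorion exon, the X sum was 2229 and 1637 in tumor, against 182538 and 8148 in control (log2 fold change -5.83, edgeR adjusted p = 0.053), and the 3L sum was 4430 and 3161 in tumor, against 5718 and 11217 in control (-1.20, edgeR adjusted p = 0.03). Added up gene by gene in this way, 4 of the 9 loci were called lower, where 21.2% of all genes tested were. These were the loci of Cp38 on the X and of Cp15, Cp19 and Cp16 on 3L, and the 3L loci share targets with each other.

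The machinery that fires origins at the chorion clusters, and the wider replication and E2F-Myb factors it draws on, lay closer to the median of all genes than the chorion genes did. Of 38 listed genes, 32 were tested, 13 were lower, 3 higher and 16 not called, with a median log2 fold change of -0.50, where 21.2% of all genes tested were lower and 23.4% higher. With libraries scaled on ribosomal protein genes, 1 was lower and 6 higher with a median of 0.17. Under that scaling 902 of all 9402 genes were lower and 4426 higher, with a median of 0.67. The sign of this list's median thus depends on the scaling, while it lay below the median of all genes under both. The lower count was 5 on each TPM scale, 8 with library totals, and 1, 5, 6 and 10 when control 1, control 2, tumor 1 and tumor 2 were left out in turn. Orc2, a subunit of the origin recognition complex, had 1120 and 1077 counts in tumor, against 2125 and 2281 in control (log2 fold change -1.08 ± 0.14, edgeR adjusted p = 0.0072), a call not made under ribosomal protein scaling (-0.43, adjusted p = 0.11), while Orc5, another subunit, had 6125 and 5348 in tumor, against 2801 and 3303 in control (0.84 ± 0.08, edgeR adjusted p = 0.0038). Mcm3, a subunit of the replicative helicase, had 227 and 376 counts in tumor, against 1434 and 1637 in control (-2.41 ± 0.34, edgeR adjusted p = 0.0088), and this gene stayed lower under ribosomal protein scaling (-1.73, adjusted p = 0.02). E2f1, a cell cycle transcription factor that acts at chorion origins, had 8402 and 8202 counts in tumor, against 4808 and 6189 in control (0.53 ± 0.08, edgeR adjusted p = 0.0092), a call lost without control 1 (adjusted p = 0.073) or control 2 (0.052). Its partner Dp had 6916 and 7008 in tumor, against 9576 and 11257 in control (-0.65 ± 0.08, edgeR adjusted p = 0.0069) and was not called under ribosomal protein scaling (adjusted p = 0.99). Without control 1 the calls of Orc2, Mcm3 and Dp were also lost, each at an adjusted p of 0.051. Cdc7, the kinase that triggers origins, and RecQ4, a helicase of origin firing, were lower by similar amounts (-0.60 ± 0.08 and -0.68 ± 0.08, edgeR adjusted p = 0.0088 and 0.0055) and likewise lost their calls under that scaling (adjusted p = 0.78 and 0.84), and Cdc7 did so without control 1 (adjusted p = 0.059).

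Of 21 regulators of chorion transcription and of late follicle cells, all 21 were tested, with 4 lower, 4 higher and 13 not called, and a median log2 fold change of 0.01. Over all genes tested 21.2% were lower and 23.4% higher, so both counts lie near the background. Under ribosomal protein scaling the counts were 2 lower and 12 higher, where 902 and 4426 of all 9402 genes were. The ecdysone receptor gene EcR had 4300 and 3275 counts in tumor, against 3982 and 4961 in control (edgeR adjusted p = 0.11), and its partner usp, which binds the promoter of Cp15, had 1435 and 1233 in tumor, against 1111 and 1255 in control (edgeR adjusted p = 0.61). Tests were also not passed by br, ttk and Cf2, zinc finger factors of the follicle epithelium (edgeR adjusted p = 0.50, 0.93 and 0.16). In scaled CPM the groups overlapped for usp, br and ttk, and both tumor libraries lay below both control libraries for EcR.

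The called regulators with the smallest adjusted p were peb, sim, Oamb and Eip75B. The zinc finger gene peb had 320 and 264 counts in tumor, against 13224 and 19896 in control (log2 fold change -5.88 ± 0.17, edgeR adjusted p = 0.0011). Oamb, the octopamine receptor through which mature follicles are released, had 9 and 15 counts in tumor, against 267 and 366 in control (-4.75 ± 0.52, edgeR adjusted p = 0.0052). Eip75B, an ecdysone-induced nuclear receptor, had 24586 and 22401 counts in tumor, against 34192 and 50699 in control (-0.91 ± 0.13, edgeR adjusted p = 0.0089), a call not made under ribosomal protein scaling (adjusted p = 0.18). Higher in tumor was sim, with 5580 and 5652 counts, against 1938 and 1928 in control (1.46 ± 0.13, edgeR adjusted p = 0.0038). For these 4 genes the control libraries were within 1.5-fold of each other, unlike the X chorion genes.

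Markers of stage and of other cells differed between the groups as well, and their counts stand against 21.2% of all genes lower and 23.4% higher. The 3 yolk protein genes, which follicle cells and fat body express during yolk uptake, were all lower, with summed levels of 175 and 149 scaled CPM in tumor, against 2847 and 2695 in control. Yp1 had 173 and 446 counts in tumor, against 33487 and 41661 in control (log2 fold change -6.97 ± 0.61, edgeR adjusted p = 0.0035). Control libraries labelled as follicles before yolk uptake thus held yolk protein, vitelline membrane and, mainly in control 1, chorion transcripts. Germline markers were lower for 11 and not called for 1 of 12, with summed levels of 326 and 334 scaled CPM in tumor, against 1600 and 1486 in control. Early follicle cell markers were higher for 4, lower for 1 and not called for 1 of 6, with summed levels of 1764 and 1859 in tumor, against 933 and 1082 in control. The 1 lower gene was the driver gene tj, which lost that call under ribosomal protein scaling and without control 2 or tumor 2.

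Hemocyte markers were higher for 6 and not called for 1 of 7, with 458 and 699 scaled CPM in tumor, against 95.7 and 67.2 in control. Fat body and oenocyte markers were not called for any of 3 tested out of 5. Their level was 171 and 187 scaled CPM in tumor, against 156 and 159 in control. Most of it was Desat1, at 154.1 and 166.5 in tumor, against 141.1 and 145.6 in control. Oviduct and spermatheca markers were lower for 1 of 2 tested out of 6. Their level was 27.1 and 26.3 scaled CPM in tumor, against 31.5 and 29.3 in control. Nearly all of it was Send2, at 26.8 and 25.4 in tumor, against 29.8 and 26.8 in control. The lower gene, abd-A, was at 0.166 and 0.286 in tumor, against 1.74 and 2.48 in control. Spn88Eb, Send1 and sphinx1 were at 0 in all 4 libraries. The lists of yolk, germline and hemocyte markers did not separate control 1 from control 2 as the X chorion genes did, with median log2 ratios of control 1 to control 2 of 0.08, 0.24 and 0.50. The part of germline content, stage and other cells in the chorion result was not tested.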

How the data were processed

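All 4 ovary libraries were used, with group and replicate number from the sample titles. Per the submitters' processing notes, kallisto was used, with a version, build and strandedness not given in the sources used here. For each gene the deposited tables hold, per the file headers, an estimated count, which need not be whole, and a TPM value, which divides by effective target length and scales each library to the same total. Target lengths equalled the span in BDGP6.54 (Ensembl release 115) plus 2000 bases on each side for 17551 of 17668 annotated genes (99.3%). This means that reads of introns and neighbours can enter a count, and that the deposited TPM is per target length, not per transcript length.

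Estimated counts were rounded and tested with edgeR 4.0.16 in R 4.3.3 (filterByExpr, glmQLFit and glmQLFTest with TMM factors and group alone, two-sided, Benjamini-Hochberg over 9402 genes, threshold 0.05, 2 residual degrees of freedom). A log2 fold change is given as tumor over control, with its SE. Cluster and locus sums replaced the rows of their genes in refits over all genes. The floor was 3 counts per library and covers counting error only. Depth was 41248098 to 50971937 counts, so the spread between libraries limits precision. The labels call the libraries biological replicates but name no animals. Same-numbered libraries did not deviate together (r = -0.015 over 8178 genes).

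Alternatives were other scalings, filters, DESeq2 1.42.0, limma 3.58.1 (voom, and trend on log2(TPM + 0.1), log2(TPM + 1) and log2(TPM + 5)), a replicate block, each library left out, and other sums. Named genes were the 9 chorion genes, genes sharing their targets, the 5 nearest profiles per cluster, up to 6 called genes with the smallest adjusted p and 3 with the highest level per list, of which some are given. Further genes, mainly those given as not called, were chosen after their values were seen. One list entry, CG31927, matched no identifier. The chorion genes and all lists were chosen with earlier results of these data known. Python 3.11.15, pandas 2.3.3, numpy 2.4.6 and matplotlib 3.10.9 served for tables and figures. Scripts were tested on simulated data.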

Additional observations from a re-analysis of the deposited data

How the results depend on the processing

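The 3L sum stayed lower in tumor under all 20 alternatives tried, with log2 fold changes from -6.28 to -1.20 and adjusted p up to 0.031. The X sum kept its direction under all 20, but passed the threshold in 3, with DESeq2 (-5.73, adjusted p = 0.008), without control 2, and without Cp7Fb and Cp7Fc (-11.59, adjusted p = 0.043). Cp7Fb and Cp7Fc held nearly all X cluster counts in tumor and were left out after the data were seen. A larger fall was thus built into that sum. Likewise, Cp16 held most 3L counts in tumor and was left out after the data were seen, which gave the 3L value of -6.28. Leaving out 1 library at a time moved the X sum between -6.70 and -0.75. The cause of these differences was not tested. Its log2 ratio of control 1 to control 2 was 5.86 on log2(TPM + 5), against 5.94.

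Of the 9 chorion genes, 3 were called lower, against 6 with DESeq2, 1 with limma-voom, 1 on log2(TPM + 5), 1 to 8 when 1 library was left out, 1 at a threshold of 0.01 and 5 at 0.1. Locus sums gave 4, against 7 with DESeq2 and 2 to 7 when 1 library was left out. Over all genes 4190 differed, against 1843 at a threshold of 0.01 and 1855 to 2992 when 1 library was left out.

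Signs that turned were those of Cp7Fb (0.06 with limma-voom, 0.05 on log2(TPM + 0.1), 2.95 without control 1), Cp36 (7.15 without control 1) and Cp18 (2.34 with limma-voom, 0.99 on log2(TPM + 0.1), 1.14 with the replicate block, 9.07 without control 1). When 1 library was left out, Cp7Fb ran between -3.20 and 2.95, Cp36 between -17.38 and 7.15, and Cp18 between -2.77 and 9.07. All 3 have control 2 at or under a tumor library.

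With replicate number as a block, 5 chorion genes were called lower and 2836 genes differed in all. The X sum was then -3.74 (adjusted p = 0.24) and the 3L sum -3.54 (adjusted p = 0.023). The labels do not say whether same-numbered libraries shared an animal or a batch, so the main fit does not pair them.

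With 2 libraries per group, and control libraries 61.6-fold apart on the X cluster, a group mean there is mainly control 1. Overlapping targets limit what single genes show.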

Other observations

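Several eggshell genes were listed at 0 in all 4 libraries, which applied to 3 of 11 vitelline membrane genes (Vm26Aa, Vm26Ab and clos) and 4 of 25 other eggshell genes (CG13113, CG13998, CG15571 and CG31926). No exon base of its own was left to 5 of those 11, among them Vm34Ca, and to 14 of those 25, among them yellow-g, CG4009 and CG13992. The exons of Vm26Aa lie in the targets of Vm26Ab and Vm26Ac, and Vm26Ac had 44321 and 41251 counts in control. A 0 for Vm26Aa or Vm26Ab is therefore no measure of its expression.

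CG1077, an eggshell gene with all of its 2302 exon bases outside other targets, had 3362 and 2150 counts in tumor, against 4675 in control 1 and 23 in control 2, and control 1 was 249.7-fold above control 2. Its log2 fold change was 0.01 ± 1.92 (edgeR adjusted p = 1.0), and 6.95 without control 1 (adjusted p = 0.016). CG4066, also with its own exon bases only, had 0 counts in both tumor libraries, against 245 in control 1 and 1 in control 2, and was not tested.

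Chorion transcripts from the X cluster and Cp15 had opposite orders in the control libraries. Of the vitelline membrane genes, Vm32E had 0 counts in both tumor libraries, against 259 and 71 in control, and Vm34Ca had 12668 and 7066 in control, both higher in control 1. Muc12Ea was 391 in control 1 and 1229 in control 2, the order of Cp15.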
